A study of Homo sapiens with 16 samples.

Results

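The respiratory chain passes electrons from NADH and succinate to oxygen, and ATP synthase makes ATP from the proton gradient that results. Its protein-coding genes were chosen by symbol alone, as the subunit families NDUFA, NDUFB, NDUFC, NDUFS, NDUFV, SDH, UQCR, COX4 to COX8 and ATP5 of the nucleus and the MT-ND, MT-CO, MT-ATP and MT-CYB genes of mitochondrial DNA in GENCODE release 29. The rule found 103 of the 58295 genes in the files, of which 90 are nuclear and 13 mitochondrial. By complex, the nuclear genes are 37 of complex I (NADH dehydrogenase), 4 of complex II (succinate dehydrogenase), 9 of complex III (cytochrome bc1), 19 of complex IV (cytochrome c oxidase) and 21 of complex V (ATP synthase). NDUFA4 and NDUFA4L2 were counted under complex IV, where the NDUFA4 protein is now placed. The mitochondrial genes supply 7 subunits of complex I, 1 of complex III, 3 of complex IV and 2 of complex V, and complex II has none.

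Complexes I, III, IV and V can therefore be built only from products of both genomes. Nuclear subunits are transcribed by RNA polymerase II, translated in the cytosol and imported. The mitochondrial genes are transcribed by a separate polymerase, POLRMT, as long RNAs from each strand that are cut into single messages, and are translated on mitochondrial ribosomes. T cells are known to change their use of respiration and glycolysis when they are activated.

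RNA was taken from JSL1, a clone of the Jurkat T cell line, in 3 forms. The iE9 line carries a knock-in made with CRISPR-Cas9 so that exon 9 of HDAC7, a class IIa histone deacetylase, is included. The dE9 line (E9-/-) lacks that exon after a CRISPR-Cas9 knock-out, and WT is the parental genotype. By the sample labels each line was kept 48 hours in growth medium alone, here called unstimulated, or with the phorbol ester PMA (phorbol 12-myristate 13-acetate), an activator of protein kinase C, at 20 ng/mL. The series' design text instead sets 0 hours against 48 hours after PMA, so whether the unstimulated cells were also cultured for that time cannot be told. There were 3 iE9, 3 dE9 and 2 WT libraries for each treatment. All lines share the JSL1 background and the same serum-containing medium, and the labels do not say whether each edited line is a single clone or whether replicates were separate cultures, so each p-value reflects only how far these libraries differ, which may be technical.

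The labels were checked on HDAC7 itself. Transcripts with exon 9 made up 0% to 7.37% of the HDAC7 transcripts that span the exon in the 6 dE9 libraries. With PMA the share was 42.3%, 63.0% and 44.3% in the iE9 libraries, against 43.1% and 53.8% in WT. Without PMA it was 58.3%, 51.8% and 74.8% in the iE9 libraries, against 46.6% and 47.5% in WT. With PMA the iE9 and WT values overlapped, so iE9 means the libraries labelled iE9 throughout. All 8 T cell markers examined averaged over 1 TPM (transcript abundance per length, scaled to the same total in every library). Their summed level ran from 4060 to 5360 TPM in PMA-treated iE9 against 2010 to 3140 TPM unstimulated, 3100 to 4000 against 1770 to 2140 TPM in dE9, and 3910 to 4010 against 1770 to 1780 TPM in WT. Of 5 B cell markers, 1 averaged over 1 TPM, and their sum ran from 304 to 539 TPM in PMA-treated iE9 against 52.5 to 188 TPM unstimulated, 14.8 to 203 against 8.94 to 33.2 TPM in dE9, and 47.3 to 83.4 against 16.8 to 28.6 TPM in WT. Myeloid, erythroid and epithelial markers summed to at most 25.8, 87.0 and 2.89 TPM in any library. The part of these markers in the PMA results was not tested. Library totals ran from 14536537 to 21888896 estimated counts.

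All 13 mitochondrial and 84 of the 90 nuclear genes had enough counts to test, and the other 6 (COX4I2, COX6A2, COX7A1, COX7B2, COX8C and ATP5MGL) had 0 to 28 counts in all libraries together.

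The 2 iE9 libraries numbered 1 stood apart before any comparison. They had the lowest nuclear respiratory share of counts among the libraries of their treatment and the highest mitochondrial share in the series. Of the 84 tested nuclear genes, 76 (90.5%) were below the mean of the other 2 iE9 libraries with PMA, by a median of -0.59 on the log2 scale of CPM + 1 (CPM, counts scaled to the same library total). Unstimulated, 76 of 84 were again below, by a median of -0.60. Over all 18073 genes tested, 50.2% were below with PMA and 48.2% without. Results that rest on these libraries are given with and without them, and their part in the other comparisons was not tested beyond that.

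Per library, the 90 nuclear genes together took a smaller share of estimated counts with PMA and the 13 mitochondrial genes a larger one. The nuclear genes took 0.684%, 0.97% and 1.02% of counts in PMA-treated iE9, against 0.958%, 1.42% and 1.36% in unstimulated iE9. In dE9 they took 1.29%, 1.11% and 1.07% with PMA, against 1.38%, 1.31% and 1.29% unstimulated. WT had 1.17% and 1.07% with PMA, against 1.36% and 1.31% unstimulated. The PMA and unstimulated shares did not overlap in WT. In dE9 the highest PMA value equalled the lowest unstimulated one at this rounding, and in iE9 the unstimulated library numbered 1 lay within the PMA range.

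Mitochondrial genes took 8.75%, 4.10% and 3.83% of counts in PMA-treated iE9, against 6.90%, 3.21% and 2.94% in unstimulated iE9. The dE9 shares were 5.34%, 4.35% and 3.79% with PMA, against 2.54%, 2.91% and 2.93% unstimulated. WT had 4.32% and 3.98% with PMA, against 2.92% and 2.99% unstimulated. The groups were apart in dE9 and WT. In iE9 every same-numbered pair was higher with PMA, while the unstimulated library numbered 1 exceeded 2 of the 3 PMA libraries.

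Set against each other, the mitochondrial genes gave 12.8, 4.23 and 3.76 counts per nuclear count in PMA-treated iE9, against 7.21, 2.25 and 2.15 in unstimulated iE9. The ratio was 4.13, 3.93 and 3.54 with PMA in dE9, against 1.84, 2.22 and 2.26 unstimulated. In WT it was 3.70 and 3.70 with PMA, against 2.15 and 2.28 unstimulated. The group means of the log2 ratio of nuclear to mitochondrial counts differed by -0.85 in iE9, -0.88 in dE9 and -0.74 in WT, which is a mitochondrial-to-nuclear ratio 1.80, 1.84 and 1.67 times as high with PMA. Within same-numbered libraries the difference was -0.83, -0.91 and -0.80 in iE9, -1.16, -0.83 and -0.65 in dE9, and -0.78 and -0.70 in WT. The iE9 difference depends on both libraries numbered 1 being present or absent together. It was -0.86 without both, -0.29 without the PMA one and -1.42 without the unstimulated one, and -0.58 and -0.54 without unstimulated replicates 2 and 3. No test was made of this score over the members. Shares of polyadenylated RNA do not tell more RNA per cell from more cells with it, nor a gain of one part from a loss of the rest.

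**Figure D1:**
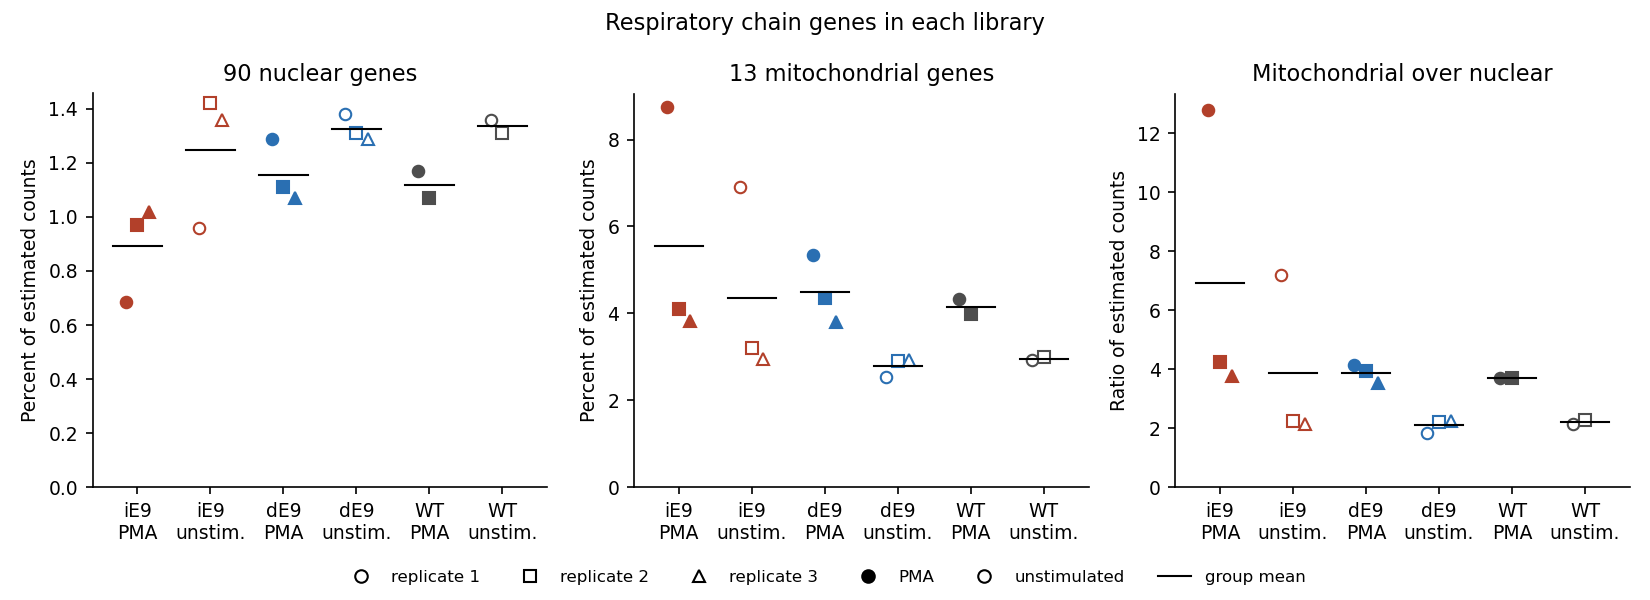
Percent of estimated counts taken by the 90 nuclear and the 13 mitochondrial respiratory genes, and the ratio of mitochondrial to nuclear counts, in each library by line and treatment. Markers give the replicate, filled points are PMA and bars are group means. The iE9 libraries numbered 1 lie apart at ratios of 12.8 and 7.21, and in the other libraries the PMA ratios (3.54 to 4.23) lie above the unstimulated ones (1.84 to 2.28).

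With PMA, nuclear subunit genes fell, and none rose, in all 3 lines at an adjusted p under 0.05 (edgeR's quasi-likelihood test, Benjamini-Hochberg over 18073 genes). In iE9, 35 of the 84 tested nuclear genes (41.7%) fell, against 14.4% of all genes tested, while 12.6% of all genes rose. In dE9, 16 of 84 (19.0%) fell, where 16.5% of all genes fell and 17.1% rose. In WT, 9 of 84 (10.7%) fell, where 11.3% of all genes fell and 11.1% rose. In this fit the dE9 and WT shares are thus close to those of all genes, and the count departs from the background in iE9.

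The direction was shared more widely than the calls. The median log2 fold change of the 84 genes was -0.54 in iE9, -0.24 in dE9 and -0.33 in WT, beside -0.01, 0.06 and 0.03 over all genes. The estimate was negative in all 3 lines for 62 of 84 genes and positive in all 3 for 5, none of them called. COX7A2L, ATP5S (an older symbol of DMAC2L), NDUFA12 and NDUFA4L2 had positive estimates in each line. All 9 genes that fell in WT were among the 16 of dE9, and all 16 of dE9 among the 35 of iE9. The 9 were NDUFC1, NDUFS6, NDUFS7, NDUFV1, SDHA, SDHB, UQCRC1, ATP5F1A and ATP5MC1.

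Same-numbered PMA and unstimulated libraries of dE9 and iE9 deviated together, and the fit with the replicate number as a block gave more calls. In iE9, 61 nuclear genes (72.6%) fell and 2 rose under the block, against 21.1% and 18.7% of all genes. In dE9, 34 (40.5%) fell and 8 rose, against 22.7% and 22.5%. Across the 6 dE9 and iE9 pairs, 45 of 84 nuclear genes were lower with PMA in every pair and 1 was higher in every pair, where 23.5% and 21.0% of all genes were. Counting genes whose PMA and unstimulated libraries did not overlap in CPM, 31 were lower and 1 higher in iE9 (21.2% and 20.1% of all genes), 35 lower and 7 higher in dE9 (23.1% and 22.0%), and 61 lower and 10 higher in WT (36.0% and 37.4%).

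Leaving out both iE9 libraries numbered 1 gave 49 lower and 0 higher in iE9 (14.2% and 12.3% of all genes), 34 lower and 7 higher in dE9 (20.6% and 21.0%), and 29 lower and 1 higher in WT (16.2% and 15%). Leaving out a single library moved the iE9 count to 53 (without unstimulated iE9 replicate 1), 19 and 22 (without unstimulated replicates 2 and 3) or 22 with 1 gene higher (without PMA replicate 1). The dE9 count was 6 and 8 without PMA replicates 2 and 3, where 12.2% and 13.5% of all genes fell. The WT count was 14 without the unstimulated iE9 library numbered 1, and 15 with 1 gene higher without the PMA one. There 13.1% and 13.0% of all genes fell. Without 1 of the 4 WT libraries the WT median log2 fold change of the 84 genes ran from -0.39 to -0.24.

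**Figure D2:**
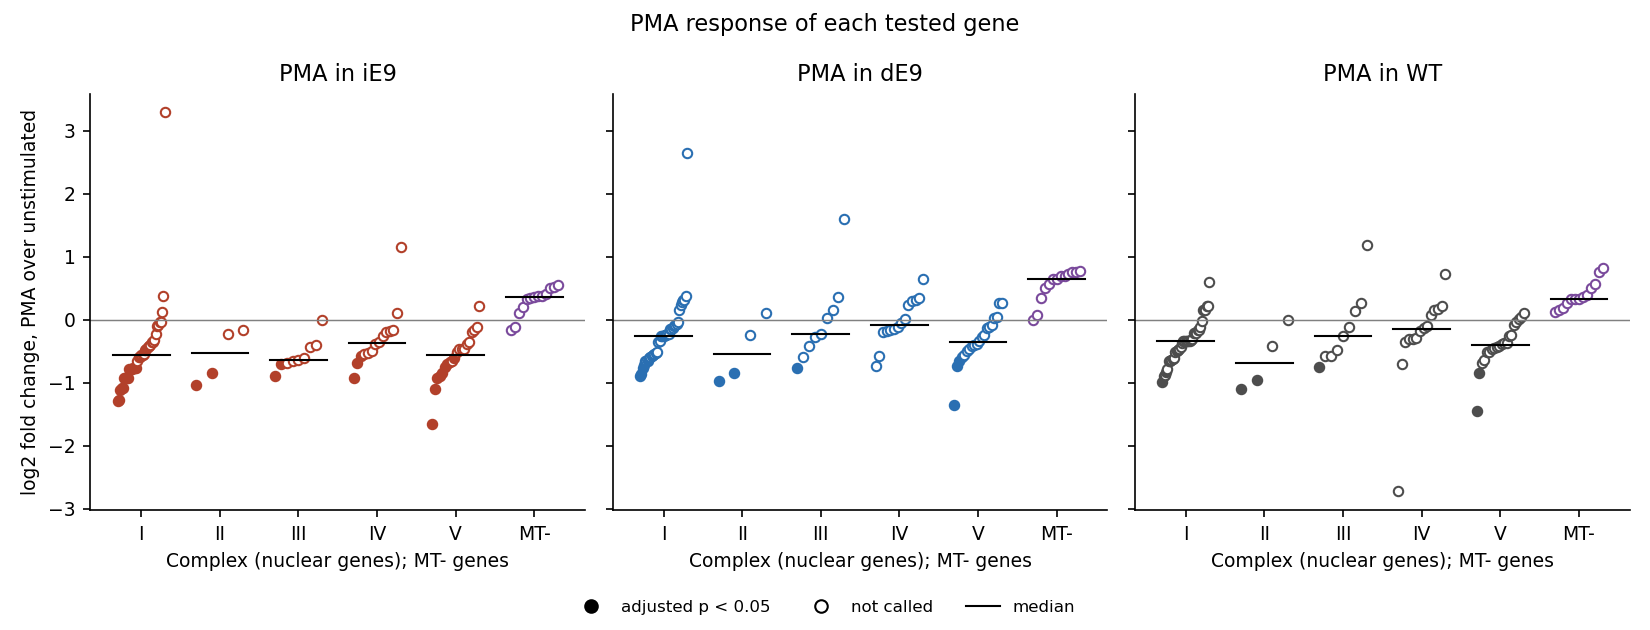
Log2 fold change of PMA over unstimulated cells for the 84 tested nuclear genes by complex and for the 13 mitochondrial genes (MT-), in each line. Filled points passed an adjusted p of 0.05 and bars are medians. Called points are all nuclear and all below 0, and the complex I point near 3 in iE9 and dE9 is NDUFC2-KCTD14, a readthrough gene at or near 0 in most libraries.

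Complex I takes electrons from NADH through a peripheral arm built round 7 nuclear core subunits. Of those 7, 5 fell in iE9, 3 in dE9 and 2 in WT, where 14.4%, 16.5% and 11.3% of all genes fell. NDUFV1, which holds the NADH-binding site, had 201, 165 and 162 TPM in PMA-treated iE9, against 305, 274 and 251 TPM unstimulated. In dE9 it had 245, 184 and 168 TPM with PMA, against 313, 333 and 340 TPM. In WT it had 174 and 178 TPM with PMA, against 287 and 306 TPM. The groups were apart in every line, and the log2 fold change was -0.92 ± 0.16 (SE) in iE9, -0.89 ± 0.16 in dE9 and -0.99 ± 0.19 in WT (edgeR adjusted p = 0.000787, 0.000693 and 0.00272).

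NDUFS7, an iron-sulfur subunit near the quinone site, fell in each line as well. It had 162, 186 and 174 TPM in PMA-treated iE9, against 290, 329 and 287 TPM unstimulated. Its log2 fold change was -0.92 in iE9, -0.57 in dE9 and -0.63 in WT (edgeR adjusted p = 0.00035, 0.00624 and 0.0188). NDUFV2 (-0.93), NDUFS3 (-0.78) and NDUFS8 (-0.77), also core subunits, fell in iE9. NDUFS1 had log2 estimates of -0.23, -0.24 and -0.37 in iE9, dE9 and WT and was not called.

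Among the 29 supernumerary subunits of complex I, readthrough genes left out, 14 fell in iE9, 6 in dE9 and 2 in WT. The iE9 count is above the 14.4% of all genes that fell. The dE9 count is near its 16.5% and the WT count below its 11.3%. NDUFB10, in the membrane arm, had 109, 166 and 178 TPM in PMA-treated iE9, against 224, 405 and 340 TPM unstimulated, with no overlap. The log2 fold change was -1.29 ± 0.26 in iE9 and -0.86 ± 0.25 in dE9 (edgeR adjusted p = 0.00202 and 0.0167), and the WT estimate of -0.88 was not called (0.0529). NDUFB8 and NDUFA7 fell by 1.27 and 1.11 in iE9 on the same scale.

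NDUFS6, an accessory subunit of the NADH-oxidizing module, had 101, 172 and 167 TPM in PMA-treated iE9, against 181, 310 and 278 TPM unstimulated. It fell in all 3 lines, by 1.08 in iE9, 0.72 in dE9 and 0.83 in WT on the log2 scale. NDUFC1 fell by 0.78, 0.76 and 0.89. NDUFS5, the most abundant nuclear complex I message at a mean of 926 TPM, was not called in any line (log2 -0.10 in iE9, 0.32 in dE9 and 0.21 in WT). NDUFC2-KCTD14 joins NDUFC2 to its neighbour, averaged 0.531 TPM and shares sequence with it, so its values are uncertain.

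Complex II, the enzyme shared with the citric acid cycle, was divided by role. Its catalytic subunits fell in every line and its membrane anchors were called in none. SDHA, the flavoprotein that oxidizes succinate, had 57.1, 53.2 and 51.5 TPM in PMA-treated iE9, against 102, 84.9 and 77.7 TPM unstimulated. The dE9 libraries had 69.6, 41.7 and 39.6 TPM with PMA, against 88.0, 91.8 and 87.4 TPM. WT had 46.4 and 50.3 TPM with PMA, against 94.3 and 93.2 TPM. PMA and unstimulated libraries did not overlap in any line, and the log2 fold change was -0.84 ± 0.17 in iE9, -0.97 ± 0.17 in dE9 and -1.10 ± 0.21 in WT (edgeR adjusted p = 0.00232, 0.000639 and 0.00227).

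SDHB, the iron-sulfur subunit, had 47.5, 75.2 and 81.1 TPM in PMA-treated iE9, against 94.7, 144 and 128 TPM unstimulated. In dE9 it had 84.7, 75.3 and 88.5 TPM with PMA, against 148, 139 and 138 TPM, and in WT 73.6 and 88.6 TPM, against 134 and 146 TPM. All PMA values lay below all unstimulated values of the same line. The log2 fold change was -1.03 in iE9, -0.85 in dE9 and -0.95 in WT (edgeR adjusted p = 0.00173, 0.00436 and 0.0123). The membrane anchors SDHC and SDHD bind the complex to the inner membrane and hold the quinone site. SDHC had 160, 217 and 233 TPM in PMA-treated iE9, against 168, 260 and 240 TPM unstimulated, which overlap. Its log2 estimates were -0.17, 0.10 and -0.01 in iE9, dE9 and WT, and those of SDHD were -0.23, -0.25 and -0.42, with adjusted p of at least 0.259. A difference between the catalytic and the anchor genes was not tested.

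In complex III, which passes electrons from ubiquinol to cytochrome c, 2 of 9 genes fell in iE9 and 1 in each of dE9 and WT. These counts are too small to set apart from the 14.4%, 16.5% and 11.3% of all genes that fell in iE9, dE9 and WT. UQCRC1, a core protein on the matrix side, had 126, 184 and 186 TPM in PMA-treated iE9, against 229, 293 and 291 TPM unstimulated. It fell by 0.90 in iE9, 0.77 in dE9 and 0.75 in WT on the log2 scale (edgeR adjusted p = 0.00469, 0.00875 and 0.043). UQCRQ, a small subunit, fell in iE9 (-0.71, adjusted p = 0.0281). UQCRFS1, the Rieske iron-sulfur protein, had log2 estimates of -0.64, -0.59 and -0.57 in iE9, dE9 and WT and was not called.

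UQCRH, the hinge subunit, was the most abundant complex III message of the nucleus with a mean of 840 TPM, and its estimates of -0.66, -0.42 and -0.57 were not called. Its near copy UQCRHL averaged 0.415 TPM, and reads could be divided between them, so the value of UQCRHL is uncertain.

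Complex IV reduces oxygen, and its nuclear genes include tissue isoforms. Of 14 tested genes, 3 fell in iE9 and 0 in dE9 or WT by edgeR, where 14.4%, 16.5% and 11.3% of all genes fell. In each of dE9 and WT 2 had an unadjusted p under 0.05 (43.3% and 35.9% of all genes). DESeq2 called 0 in dE9 and 0 in WT. COX5A, a subunit on the matrix side, had 167, 304 and 290 TPM in PMA-treated iE9, against 352, 510 and 459 TPM unstimulated. Its log2 fold change was -0.93 ± 0.23 (edgeR adjusted p = 0.00732). COX5B fell by 0.68 and COX4I1 by 0.57 in iE9 on the same scale, with adjusted p of 0.0141 and 0.0166. COX4I1 had 387, 585 and 614 TPM with PMA in iE9, against 633, 764 and 742 TPM unstimulated, and its estimates in dE9 and WT were -0.05 and -0.10.

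The isoforms used were the ubiquitous ones. COX4I1, COX6A1, COX6B1, COX7A2 and COX8A averaged 650, 943, 658, 724 and 702 TPM. The isoforms known from heart and skeletal muscle, COX6A2 and COX7A1, had 0 and 6 counts in all 16 libraries together. COX4I2, known from lung, had 2 counts, and COX7B2 and COX8C, known from testis, had 0 and 1. COX6B2, also known from testis, averaged 0.339 TPM. None of the ubiquitous forms but COX4I1 was called in any line.

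NDUFA4 averaged 160 TPM and was not called (log2 -0.26, 0.01 and -0.13 in iE9, dE9 and WT). Its paralog NDUFA4L2, known as a target of hypoxia-inducible factor in other cells, was low. It had 3.48, 5.16 and 5.81 TPM in PMA-treated iE9, against 1.51, 2.08 and 2.11 TPM unstimulated. WT had 6.12 and 5.33 TPM with PMA, against 3.07 and 3.30 TPM. Both were apart, but the log2 estimates of 1.15 ± 0.47 in iE9, 0.65 in dE9 and 0.73 in WT were not called (edgeR adjusted p = 0.0848, 0.306 and 0.383).

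In complex V, 9 of 20 tested genes fell in iE9, 4 in dE9 and 2 in WT, where 14.4%, 16.5% and 11.3% of all genes fell. The dE9 and WT counts are close to those shares. The largest fall of any called member was that of ATP5MC1, 1 of 3 genes that encode the same mature subunit c of the rotating ring. ATP5MC1 had 131, 205 and 193 TPM in PMA-treated iE9, against 410, 599 and 506 TPM unstimulated. The dE9 libraries had 297, 261 and 190 TPM with PMA, against 628, 615 and 592 TPM, and in WT 209 and 223 TPM, against 581 and 556 TPM. No PMA library reached any unstimulated one. The log2 fold change was -1.66 ± 0.21 in iE9, -1.35 ± 0.21 in dE9 and -1.45 ± 0.26 in WT (edgeR adjusted p = 7.4e-05, 0.000235 and 0.00141).

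The other 2 subunit c genes moved less. ATP5MC2 fell in iE9 (-0.71, edgeR adjusted p = 0.0428), with estimates of -0.50 in dE9 and -0.44 in WT that were not called. ATP5MC3 fell in iE9 (-0.67, adjusted p = 0.0382), with -0.46 in dE9 and -0.38 in WT. Within the summed TPM of the 3 genes, a measure that library scaling cannot change, ATP5MC1 held 22.8%, 21.0% and 21.1% in PMA-treated iE9, against 39.1%, 36.0% and 34.2% unstimulated. It held 25.6%, 25.9% and 19.8% in PMA-treated dE9, against 35.3%, 36.9% and 36.0%, and 19.4% and 21.0% in PMA-treated WT, against 34.4% and 36.1%. The iE9 libraries numbered 1 lay close to the others of their groups in this measure.

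**Figure D3:**
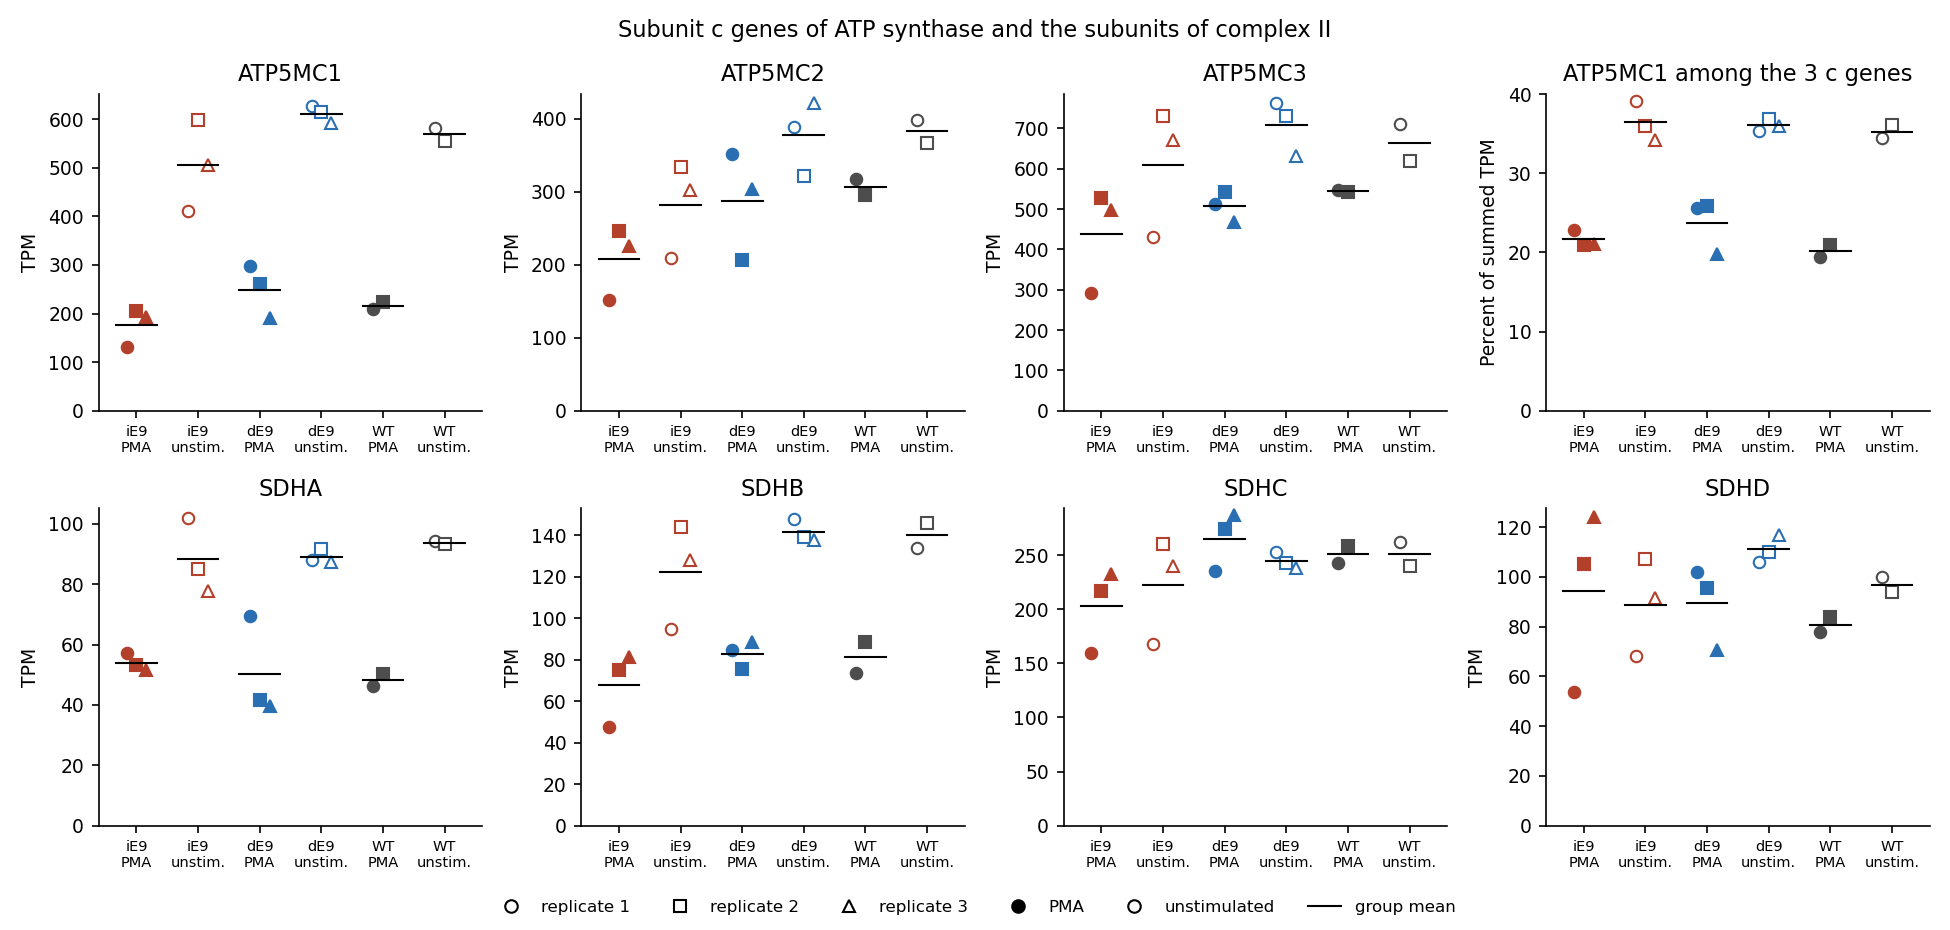
TPM of the 3 genes for subunit c of ATP synthase and of the 4 complex II genes, and the percent of the summed subunit c TPM held by ATP5MC1, in each library. Markers give the replicate, filled points are PMA and bars are group means. ATP5MC1, its share, SDHA and SDHB lie lower in every PMA group than in the unstimulated group of the same line, and SDHC overlaps.

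In the catalytic F1 head and central stalk, 4 of 5 genes fell in iE9, 3 in dE9 and 1 in WT. Of all genes 14.4%, 16.5% and 11.3% fell. ATP5F1A, the alpha subunit, had 184, 275 and 282 TPM in PMA-treated iE9, against 321, 454 and 397 TPM unstimulated. In dE9 it had 352, 416 and 407 TPM, against 590, 563 and 567 TPM, and in WT 336 and 386 TPM, against 606 and 610 TPM. The groups were apart, and it fell by 0.92 in iE9, 0.59 in dE9 and 0.84 in WT on the log2 scale (edgeR adjusted p = 0.0024, 0.0231 and 0.0171). ATP5F1B, the catalytic beta subunit, fell by 0.84 in iE9 and 0.65 in dE9, and ATP5F1D, of the central stalk, by 1.10 and 0.74.

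None of the 4 peripheral stalk genes was called, with medians of -0.46 in iE9, -0.12 in dE9 and -0.32 in WT. ATP5MF, a small membrane subunit and the most abundant nuclear message of the complex at a mean of 1230 TPM, fell in iE9 (-0.90, edgeR adjusted p = 0.0123). ATP5IF1, which blocks the enzyme when it would split ATP, was not called (-0.16, -0.25 and -0.41 in iE9, dE9 and WT). The readthrough gene ATP5MF-PTCD1 averaged 7.82 TPM and shares exons with ATP5MF, so its value is uncertain.

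Promoters are shown for ATP5MC1, SDHB and NDUFS7, genes of 3 complexes that fell in every line, because nuclear subunits are known to share binding sites for a few ubiquitous factors. The windows run from 250 bases before to 50 after the RefSeq start in GRCh38.p14, on the gene's strand, at chr17:48892537-48892836 (plus), chr1:17053983-17054282 (minus) and chr19:1383657-1383956 (plus). Capitals mark matches, on either strand, to NRF1 (GCGCATGCG), ETS (CCGGAAG), YY1 (AAGATGGCG) or the E-box (CACGTG), none of which overlap here.
ATP5MC1: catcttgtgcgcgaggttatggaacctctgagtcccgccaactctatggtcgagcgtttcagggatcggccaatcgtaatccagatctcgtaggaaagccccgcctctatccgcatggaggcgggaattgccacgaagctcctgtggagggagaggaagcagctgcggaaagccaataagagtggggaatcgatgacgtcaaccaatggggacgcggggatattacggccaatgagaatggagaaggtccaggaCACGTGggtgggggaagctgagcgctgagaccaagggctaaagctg
SDHB: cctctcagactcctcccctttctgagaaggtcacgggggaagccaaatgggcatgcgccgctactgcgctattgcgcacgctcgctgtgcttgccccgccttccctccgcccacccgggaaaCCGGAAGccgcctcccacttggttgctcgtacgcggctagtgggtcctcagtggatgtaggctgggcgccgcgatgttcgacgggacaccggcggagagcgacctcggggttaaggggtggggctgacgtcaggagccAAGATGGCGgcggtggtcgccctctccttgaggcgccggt
NDUFS7: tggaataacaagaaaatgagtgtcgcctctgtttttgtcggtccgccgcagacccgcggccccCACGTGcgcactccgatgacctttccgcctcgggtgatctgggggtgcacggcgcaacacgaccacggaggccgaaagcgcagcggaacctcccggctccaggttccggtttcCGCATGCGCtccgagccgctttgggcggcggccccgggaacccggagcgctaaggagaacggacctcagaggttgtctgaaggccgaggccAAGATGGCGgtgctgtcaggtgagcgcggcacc
The 3 windows hold different sets of motifs. ATP5MC1 has an E-box just inside the transcript, SDHB an ETS match 128 bases before the start and a YY1 match just after it, and NDUFS7 an E-box 187 and an NRF1 match 74 bases before the start with a YY1 match after it.

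RefSeq windows were matched by symbol for 68 of the 90 nuclear genes and compared with 27305 genes of the same table. Those are more than the 19884 protein-coding genes of the series, so they were not limited to protein-coding genes as the members are. NRF1 letters were found in 11 of 68 (16.2%) and in 2.34% of all genes, and ETS letters in 20 (29.4%) and 12.2%. YY1 letters stood in 9 (13.2%) and 2.14%, and the E-box in 7 (10.3%) and 8.77%. At least 1 of the 4 was present in 36 of 68 (52.9%), against 22.2% of all genes. Of the 29 matched genes that fell in iE9, 17 held at least 1, a share near that of the 68. A link between motifs and the fall was not tested. A match describes letters in the window and is not a measured binding site.

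The 13 mitochondrial genes are the most abundant messages of the group. MT-ATP8 averaged 24300 TPM and MT-ATP6 17800 TPM, against 1340 TPM for COX7C, the highest nuclear member. The rank of MT-ATP8 depends on scaling by its length of 207 bases. In CPM it lay below MT-CO1 in every library, at 1070 against 9970 in PMA-treated WT replicate 1. MT-ND5 was the lowest at 2340 TPM. With PMA none was called in any line, although 11 of 13 estimates were positive in all 3 lines. The median log2 fold change was 0.36 in iE9, 0.64 in dE9 and 0.33 in WT. An unadjusted p under 0.05 was found for 0 in iE9, 6 in dE9 and 0 in WT, where 38.9%, 43.3% and 35.9% of all genes had one. The 6 of 13 in dE9 are near that share, and iE9 and WT lie below it. DESeq2 also called 0 in each line.

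MT-CYB, cytochrome b of complex III, had 11100, 5330 and 5190 TPM in PMA-treated iE9, against 7730, 3340 and 3060 TPM unstimulated. The dE9 libraries had 6350, 6340 and 5210 TPM with PMA, against 2840, 3800 and 3580 TPM. In WT it had 6560 and 6220 TPM, against 3210 and 3450 TPM. The groups were apart in dE9 and WT and overlapped in iE9 only through the unstimulated library numbered 1. The log2 estimates were 0.52 ± 0.33, 0.75 ± 0.33 and 0.82 ± 0.41 in iE9, dE9 and WT (edgeR adjusted p = 0.265, 0.0985 and 0.166).

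MT-CO1, the catalytic subunit of complex IV, had 24300, 10600 and 10300 TPM in PMA-treated iE9, against 18400, 7260 and 7300 TPM unstimulated. In dE9 it had 13600, 11600 and 11800 TPM, against 6390, 7060 and 7390 TPM, and in WT 11200 and 10600 TPM, against 7530 and 7690 TPM. MT-ND2, a membrane subunit of complex I, behaved otherwise in value. It had 8870, 5020 and 3880 TPM in PMA-treated iE9, against 10400, 4300 and 3470 TPM, and 4710, 3270 and 3180 TPM in PMA-treated dE9, against 2970, 3660 and 3650 TPM, which overlap. Its log2 estimates were -0.16, 0.08 and 0.13 in iE9, dE9 and WT.

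Pairing the libraries changed these calls. Under the replicate block 7 of 13 mitochondrial genes rose in iE9 and 11 of 13 in dE9, where 18.7% and 22.5% of all genes rose. Across the 6 pairs 10 of 13 were higher with PMA in every pair, where 21.0% of all genes were. Without both iE9 libraries numbered 1, 2 rose in iE9, 11 in dE9 and 5 in WT, where 12.3%, 21.0% and 15% of all genes rose. The 2 of 13 in iE9 are near that share. With only the unstimulated iE9 library numbered 1 left out, 6 rose in iE9 and 5 in dE9, where 14.3% and 18.6% of all genes rose. With only the PMA library numbered 1 left out, 6 rose in dE9, where 18.3% of all genes rose. In that fit 9 iE9 estimates (MT-CO1, MT-CO2, MT-CO3, MT-ATP8, MT-ATP6, MT-ND3, MT-ND4L, MT-ND4 and MT-ND5) turned negative, the lowest being -0.42 for MT-CO3. All 13 were higher with PMA in WT with no overlap in CPM, as were 10 of 13 in dE9 and 0 in iE9, where 37.4%, 22.0% and 20.1% of all genes were.

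Along the mitochondrial map the estimates were not uniform. Spearman's rho between map order and log2 fold change over the 13 genes, which share libraries and transcripts, was 0.66 in iE9, 0.41 in dE9 and 0.76 in WT, given as a description. The first 2 genes, MT-ND1 and MT-ND2, averaged -0.14 in iE9, 0.04 in dE9 and 0.14 in WT. The last 3, MT-ND5, MT-ND6 and MT-CYB, averaged 0.48, 0.69 and 0.71. MT-CO3 held 8.31% to 9.01% of the mitochondrial TPM in the 8 PMA libraries, against 9.65% to 11% in the 8 unstimulated ones. It was the only 1 of the 13 whose share did not overlap between treatments.

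**Figure D4:**
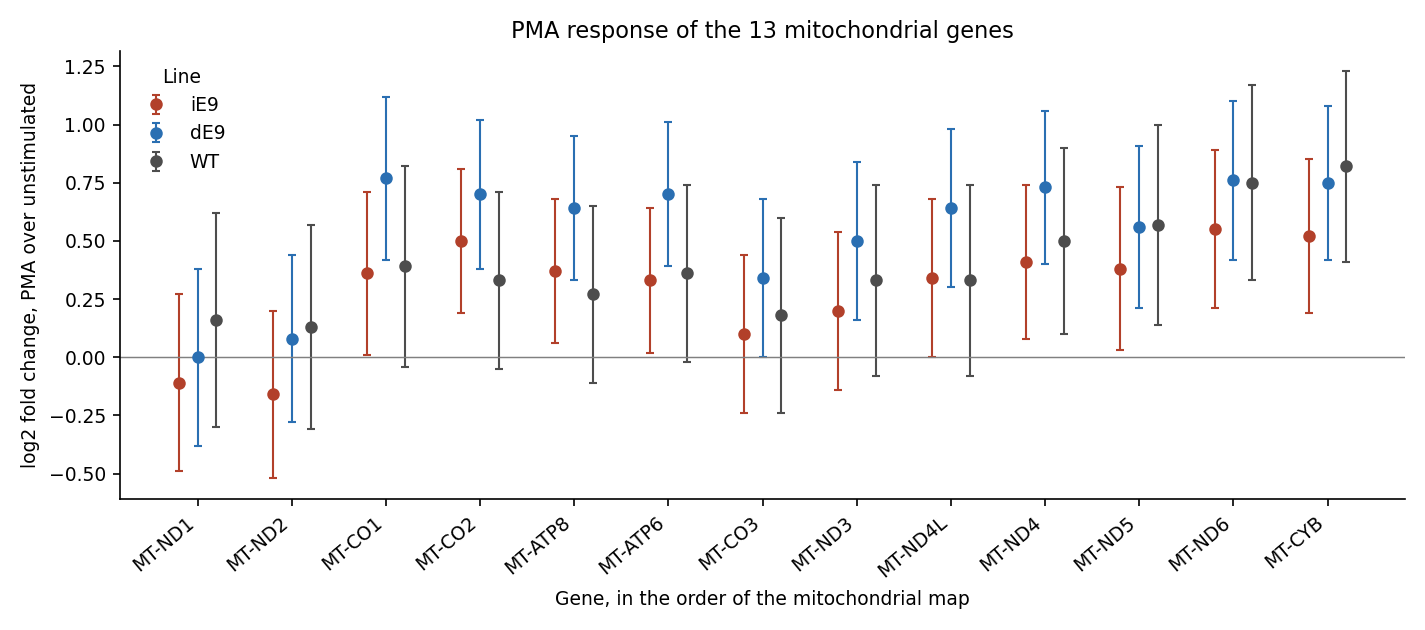
Log2 fold change of PMA over unstimulated cells (points) with its SE (bars) for the 13 mitochondrial genes in map order, by line. MT-ND1 and MT-ND2 lie between -0.16 and 0.16, MT-CYB at 0.52 to 0.82, and none passed an adjusted p of 0.05.

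Several mitochondrial values share reads. MT-ATP8 and MT-ATP6 lie on the same message and overlap by 46 bases at chrM:8527-8572, shown because reads from it fit both genes, with the start codon of MT-ATP6 and the stop codon of MT-ATP8 in capitals.
MT-ATP8 and MT-ATP6: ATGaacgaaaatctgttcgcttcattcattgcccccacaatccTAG
MT-ND4L and MT-ND4 share 7 bases in the same way. MT-ND6 is the only member on the other strand, and the strandedness of the libraries is not given in the sources used here, so its reads cannot be told from antisense RNA. MTATP6P1, a nuclear copy on chromosome 1 (633696 to 634376, hg38), differs from MT-ATP6 at 10 of 681 bases and was listed at 954 to 3450 TPM. Adding such copies to the mitochondrial sum left each PMA difference of the ratio within the spread between replicates.

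Between lines, few respiratory genes were called. The comparison of the libraries labelled iE9 with dE9 under PMA called 1 of 97 tested members, ATP5F1A, where 2.61% of all genes were called. ATP5F1A had 184, 275 and 282 TPM in iE9, against 352, 416 and 407 TPM in dE9, with no overlap. Its log2 difference was -0.80 ± 0.19 (edgeR adjusted p = 0.0374), and -0.63 without both iE9 libraries numbered 1 (0.0129). Leaving out 1 library kept the log2 difference between -0.90 and -0.64, but the adjusted p ran from 0.0173 to 0.118 and missed the threshold in 11 of 16 fits, those without any 1 of the 4 WT libraries, unstimulated dE9 replicates 1 and 3, PMA dE9 replicate 2, unstimulated iE9 replicate 3 and each PMA iE9 library. It also missed it with only the compared groups in the fit (0.217) and with length-scaled counts (0.0556). An unadjusted p under 0.05 was found for 32 of the 97 members, all of them nuclear, and for 3450 of all 18073 genes. That is a higher share of the members than of all genes. Of the 84 nuclear genes 78 had a negative estimate here, with a median of -0.37, and the median was -0.22 without both iE9 libraries numbered 1.

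No member was called for iE9 against dE9 unstimulated, where 1.72% of all genes were, nor for iE9 against WT unstimulated (1.38%) or with PMA (1.12%), by edgeR. DESeq2 called 0, 0 and 2 members in these 3 comparisons, and 867, 830 and 709 of all 18073 genes. The 2 of 97 members is a smaller share than the 709 of 18073. Unadjusted p was under 0.05 for 5 members in iE9 against dE9 unstimulated, 4 in iE9 against WT unstimulated and 10 in iE9 against WT with PMA, of 97 each. Over all genes the shares were 15.1%, 15.1% and 14.2%, so in these 3 comparisons, unlike iE9 against dE9 with PMA, the members' counts were no higher than the background. All 13 mitochondrial estimates were positive in these comparisons, with medians of 0.63 against dE9 and 0.50 against WT unstimulated, and 0.35 and 0.46 with PMA. Without the iE9 libraries numbered 1 the medians were 0.13, 0.04, -0.15 and 0.02. The log2 ratio of nuclear to mitochondrial counts differed by -0.64 and -0.56 unstimulated and by -0.61 and -0.67 with PMA, against dE9 and WT, and by -0.07, 0.01, -0.05 and -0.11 without them.

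In dE9 against WT edgeR called 0 of 18073 genes with either treatment (0%), while 560 (3.1%) unstimulated and 459 (2.54%) with PMA had an unadjusted p under 0.05 and DESeq2 called 15 and 9. None of these genes, by either tool, was a respiratory member. The ratio differed by 0.08 unstimulated and -0.06 with PMA. The PMA response itself was compared between lines as an interaction. By edgeR no gene of the table was called in the 3 differences of responses (0%), while DESeq2 called 127 genes in iE9 minus dE9, 53 in iE9 minus WT and 1 in dE9 minus WT, none of them a respiratory member. The smallest edgeR adjusted p of a member was 0.567, in iE9 minus dE9. There 5 nuclear genes had an unadjusted p under 0.05 (NDUFB8, NDUFB9, COX4I1, COX5B and COX6C) of 84, near the 6.86% of all genes that did. The median over the 84 genes was -0.31. The larger count of falls in iE9 was thus not shown to be a difference between lines. All PMA comparisons of a line share its unstimulated libraries with the line comparisons above.

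The genes that build and serve the chain were examined as lists, beside the 14.4%, 16.5% and 11.3% of all genes that fell and the 12.6%, 17.1% and 11.1% that rose in iE9, dE9 and WT. CYC1 (cytochrome c1), CYCS (cytochrome c) and NDUFAB1 (the acyl carrier of complex I), subunits and carriers that the symbol rule misses, all fell in each line. CYC1 fell by 1.29 in iE9, 1.40 in dE9 and 1.42 in WT on the log2 scale (edgeR adjusted p = 9.76e-05, 4.12e-05 and 0.000442). Of 78 mitochondrial ribosomal protein genes, 55 fell in iE9, 48 in dE9 and 32 in WT and none rose. MRPL36 fell by 1.73, 1.42 and 1.47.

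Of 16 complex I assembly factors, 11, 10 and 10 fell in iE9, dE9 and WT and none rose. ECSIT and ACAD9, which act together in building the membrane arm, fell by 1.57 and 1.0 in iE9, 1.36 and 1.08 in dE9, and 1.31 and 0.88 in WT. Of 34 assembly factors of complexes II to V, 13 fell and 1 rose in iE9, 11 fell and 4 rose in dE9, and 7 fell and 1 rose in WT. BCS1L, which inserts the Rieske protein, fell by 1.79 in iE9 and 1.63 in WT. COX10, which makes heme O for complex IV, rose in each line (1.25, 1.68 and 1.64).

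Of 15 genes for transcription and replication of mitochondrial DNA, 4 fell and 1 rose in iE9, 8 fell and 2 rose in dE9, and 7 fell and 1 rose in WT. TWNK, the replicative helicase, fell by 1.52, 1.26 and 1.25. TFB2M, the transcription initiation factor, rose in each line (1.0, 1.46 and 1.22). TFAM, the packaging and activating factor, fell in each line (-0.63, -0.84 and -0.79), as did the polymerase POLRMT (-0.95, -0.65 and -0.61). Of 18 genes for mitochondrial RNA processing and stability, 10, 9 and 7 fell and none rose. LRPPRC, which stabilizes mitochondrial messages, fell by 1.08 in iE9, 1.04 in dE9 and 1.24 in WT, beside the positive estimates of most of those messages.

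Among 8 tested nuclear regulators, 2 fell in iE9, 4 fell and 1 rose in dE9, and 3 fell and 1 rose in WT, counts too small to set apart from those shares. PPARGC1B, a coactivator of respiratory genes, fell by 2.18, 2.0 and 2.04, and the related PPRC1 by 1.12, 1.40 and 1.05. ESRRA, a nuclear receptor that these coactivators bind, rose in dE9 (0.89) and WT (0.79). Of 18 genes of the citric acid cycle and pyruvate dehydrogenase, 8, 9 and 7 fell and none rose, FH (fumarase) by 1.35, 1.21 and 1.37. Of 12 coenzyme Q genes, 5, 6 and 4 fell and 1 rose in each line. PDSS1, which makes the isoprenoid tail, fell by 1.72, 2.04 and 1.86, and COQ10B rose by 0.69, 0.91 and 0.87.

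**Figure D5:**
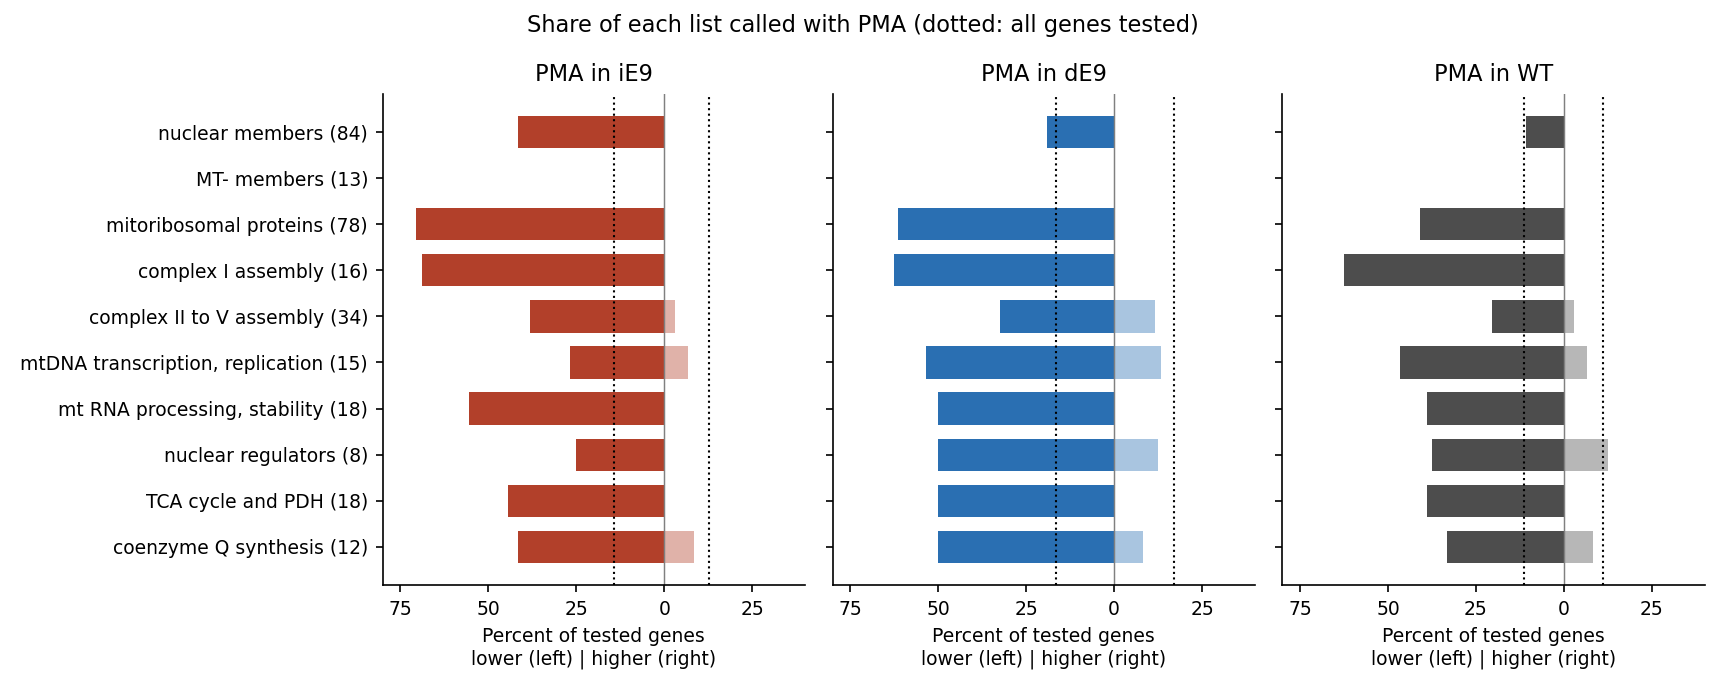
Percent of the tested genes of each list called lower (left of 0) or higher (right of 0) with PMA in each line, with the number tested in brackets. Dotted lines give the share of all genes tested. The mitochondrial ribosomal, complex I assembly, mitochondrial RNA processing and citric acid cycle lists lie well left of the dotted line in all 3 lines. The nuclear subunit genes do so in iE9.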

How the data were processed

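Polyadenylated RNA of 16 libraries was measured. Per the submitters' processing notes, Salmon and DESeq2 were used with hg38. No versions are named in the labels. The authors deposited expected counts per transcript (estimated counts that need not be whole) and TPM values for each library, and a gene-level TPM table that the gene sums made here matched. All 205870 transcripts matched GENCODE release 29, and 0 columns of values were left unused. The estimated counts of each gene's transcripts were added up and rounded to whole numbers. Sequences came from the RefSeq promoter table and from GENCODE transcripts.

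Genes were tested with edgeR 4.0.16 (R 4.3.3, limma 3.58.1), with its two-sided quasi-likelihood test. One model held all 16 libraries and a term for each line and treatment, with TMM scaling and filterByExpr, which kept 18073 of 33304 genes with a count. The biological coefficient of variation was 31.8%, and a call is an adjusted p under 0.05. Alternatives were RLE scaling, scaling without mitochondrial genes, no filter, length-scaled counts, only the groups compared, each library left out, both iE9 libraries numbered 1 left out, a replicate block and DESeq2 1.42.0. Ratios were also taken from TPM sums, from mean log2(TPM + 1) and with mitochondrial pseudogenes.

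Replicate numbers come from the sample titles. Deviations from group means correlated between same-numbered PMA and unstimulated libraries by 0.297, 0.305 and 0.24 in dE9 and 0.441, 0.226 and 0.19 in iE9, so the numbers were taken as pairs there, and by 0.073 in WT. No 2 replicates agreed within sampling noise (lowest chi-square per degree of freedom 7.55). In the marker lists for T, B, myeloid, erythroid and epithelial cells, 0 genes were at 0 in every library. Of those tested, PMA raised 3 of 8 T cell markers in iE9, 4 in dE9 and 3 in WT, and 1 of 2 B cell and 2 of 2 erythroid markers in dE9, against 0 in iE9 and WT. The 1 myeloid marker tested was raised in each line, and the 1 epithelial marker in none.

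Members named are the 13 mitochondrial genes, isoform pairs, up to 3 called genes per complex and direction by size of change with at least 1 TPM, and the highest and lowest of each complex. Genes that were named for another reason (NDUFA12, NDUFS1, NDUFS3, NDUFS7, NDUFS8, NDUFV2, SDHD, UQCRC2, UQCRFS1, COX7C) were chosen by role or after their values were seen. List genes are among the 3 smallest adjusted p in each direction. The members and lists were chosen with earlier results of these data known. Values of 1 nuclear member are not reported here.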

Additional observations from a re-analysis of the deposited data

Results flagged for a closer look

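UQCRC2, a core protein of complex III, moved one way with PMA in iE9 and the other way in WT, with no overlap between treatments in CPM in either line. It had 108, 147 and 143 CPM in PMA-treated iE9, against 150, 204 and 182 CPM unstimulated. In WT it had 252 and 243 CPM with PMA, against 233 and 217 CPM unstimulated. The log2 estimates were -0.43 in iE9 and 0.14 in WT, neither called (edgeR adjusted p = 0.163 and 0.754). The difference of the responses was -0.56 ± 0.34 (SE), and edgeR's quasi-likelihood test gave it an adjusted p of 0.979, so a difference between the lines was not shown. In TPM the iE9 groups overlap, at 147, 236 and 182 with PMA against 220, 217 and 224 unstimulated.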

How the results depend on the processing

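All 41 called results for named genes kept their direction in every alternative run. Of these, 19 stayed called in every fit without 1 library and 26 in every other alternative. The count of nuclear genes called in WT (9) was 49 with only the groups compared, 30 without both iE9 libraries numbered 1 and 37 under the replicate block, and the mitochondrial count (0) was 10, 5 and 5. Over all genes, 26.6% fell and 26.1% rose with only the groups compared, and 16.2% and 15% without those libraries. Under the block 18.8% fell and 17.7% rose, beside 11.3% and 11.1% in the main fit, so calls rose in all genes too. In dE9 the nuclear count (16) was 9 with length-scaled counts, 41 (7 higher) without those libraries and 42 (8 higher) under the block. Of all genes 12.6%, 20.6% and 22.7% fell and 15.2%, 21.0% and 22.5% rose in these settings. The mitochondrial count in dE9 (0) was 6 with no filter, 8 with only the groups compared, 11 without those libraries and 11 under the block. There 9.68%, 14.8%, 21.0% and 22.5% of all genes rose. In iE9 the nuclear count (35) was 22 with only the groups compared and 63 (2 higher) under the block, where 14.2% and 21.1% of all genes fell. The mitochondrial count in iE9 (0) was 2 without those libraries and 7 under the block, where 12.3% and 18.7% of all genes rose.

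For iE9 against dE9 with PMA the nuclear count (1) was 4 with no filter, 0 with only the groups compared, 2 under the block and 2 by DESeq2, and unstimulated the mitochondrial count was 3 with no filter. Against WT, no filter gave 1 nuclear and 2 mitochondrial genes unstimulated and 1 nuclear gene with PMA, where only the groups compared gave 1 and DESeq2 2. With PMA, DESeq2 called 1306 of 18073 genes for iE9 against dE9 and 709 for iE9 against WT. Both are larger shares than the 2 of 84 nuclear genes. In the other settings no share of all genes is given, so those counts are not set against a background. The log2 ratio for PMA in WT was -0.65 from TPM sums, beside -0.74. The replicate numbers were not taken to pair the WT libraries. Under the block no count moved by over 1.5 times in the remaining comparisons. The causes were not tested.

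For PMA in WT, fits without 1 dE9 or iE9 library gave 6 to 16 nuclear genes, where 9.67% to 13.9% of all genes fell. Of all genes 12.2% to 18.9% fell in dE9 and 9.73% to 17.6% in iE9 in fits without 1 library. Those fits gave 6 to 24 nuclear genes for PMA in dE9 and 19 to 53 in iE9, and 0 to 6 mitochondrial genes in each. They gave 0 to 3 nuclear genes for iE9 against dE9 with PMA and 0 to 1 for iE9 against WT with PMA. No share of all genes is given beside these counts between lines. Mitochondrial estimates, none called in the main fit of all 16 libraries, changed sign in some of the fits without 1 library. In dE9 MT-ND1 ran from -0.15 to 0.15 and MT-ND2 from -0.16 to 0.22. In iE9 MT-ND1 ran from -0.63 to 0.45, MT-ND2 from -0.61 to 0.39, MT-CO1 from -0.21 to 0.87, MT-CO2 from -0.03 to 0.85, MT-CO3 from -0.42 to 0.58, MT-ATP8 from -0.04 to 0.83 and MT-ATP6 from -0.08 to 0.77. MT-ND3 ran from -0.30 to 0.68, MT-ND4L from -0.10 to 0.92, MT-ND4 from -0.05 to 0.87 and MT-ND5 from -0.10 to 0.94. Where a fit left 1 WT library in a group, that library was assumed to vary like the other groups. At 14536537 to 21888896 counts per library, UQCRHL, COX6B2 and NDUFC2-KCTD14, each under 1 TPM on average, are uncertain.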

Other observations

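NDUFA12, an accessory subunit of complex I, was not called at the level of the gene in any line, with log2 estimates of 0.38 in iE9, 0.28 in dE9 and 0.60 in WT. Its annotated transcripts differed in share between treatments, a pattern picked after its values were seen and given as a description with no test. The coding transcript NDUFA12-204 held 3.61%, 5.34% and 4.27% of the gene's TPM in PMA-treated iE9, against 9.98%, 12.1% and 14.5% unstimulated. It held 5.30%, 1.42% and 0.584% in PMA-treated dE9, against 22.6%, 19.5% and 14.9%. In WT it held 4.43% and 1.39% with PMA, against 24.3% and 15.3%. The PMA and unstimulated shares were apart in every line. The main coding transcript, NDUFA12-201, held 86.2% to 92.5% of the gene's TPM over the 8 PMA libraries, against 67.7% to 82.5% over the 8 unstimulated ones. Transcript shares are Salmon's division of reads among overlapping transcripts.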
